A study of Mus musculus with 12 samples.

Results

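The comparison described here set 3 ATAC-seq libraries of stimulated Ikzf1 conditional knockout (Ikzf1-cko) Treg against 3 libraries of stimulated WT Treg, 6 of the 12 libraries in all. Its members were the 69957 of 118680 open chromatin regions (OCR) with at least 3.6 CPM (reads scaled to the library's total of counted reads) in at least 3 of the 12 libraries. A region was taken as strong where all 3 WT or all 3 Ikzf1-cko stimulated libraries held at least 10 CPM, which left 20938 strong and 49019 weak regions. Of the strong regions, 459 were more accessible in Ikzf1-cko Treg (2.19% of those tested) and 626 were less accessible (2.99%) by edgeR, where a call needed a false discovery rate (FDR) under 0.05 and a log2 fold change beyond 1 in either direction. The more accessible regions lay mostly in introns and between genes and were nearest, within 100 kb, to 340 genes. Several each lay at Mdfic, Rgs1, Cd47, Gpr15 and Il7r. The less accessible ones were nearest to 343 genes, with several each at Heatr7b1, Tcte2, Smok2a and Odz4 and in the Speer gene cluster of chromosome 5.

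Ikaros, the product of Ikzf1, is a zinc finger protein of lymphocytes that binds DNA at GGGAA cores and recruits both repressive and activating chromatin complexes. Treg are CD4+ T cells that depend on the factor Foxp3 and restrain other immune cells. Signals through the T cell receptor and CD28 activate AP-1, NF-kB and NFAT factors, which bind regulatory DNA and are accompanied by changes in its accessibility. ATAC-seq reads this accessibility through the insertion of Tn5 transposase, and more reads on a region mean that more of its copies were open in the nuclei sampled.

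WT Treg came from Foxp3-YFP-Cre mice and Ikzf1-cko Treg from Ikzf1-fl-Foxp3-YFP-Cre mice, in which Cre is made from the Foxp3 locus and deletes the floxed Ikzf1 allele in cells that express Foxp3. Both groups thus carried the YFP-Cre reporter, and the study describes the knockout mice as on a B6 background. The age of the mice behind these libraries was not found in the sources used here. YFP+ cells were sorted from spleen, and for each genotype part of them was stimulated for 4 hr with antibodies to CD3 and CD28 coated on the plate while the other part stayed unstimulated (ex vivo). Each library held 100000 cells, and libraries of the 2 states may share mice, which the labels do not tell. The stimulated WT libraries had 4808916 to 6047073 counted reads and the stimulated Ikzf1-cko libraries 9221901 to 11465957, so that each Ikzf1-cko library was deeper than each WT library. The part of this depth difference in the results was not tested beyond thinning all libraries to the smallest total.

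The cell type labels were checked at the start sites of marker genes. Regions lay over 5 of 6 Treg start sites (none over Ikzf2), and their summed level was 57.8 to 82.4 CPM in stimulated WT and 81.2 to 91.9 CPM in stimulated Ikzf1-cko Treg. All 5 T cell start sites had a region (56.6 to 72.5 against 58.7 to 63.7 CPM). Of the B cell genes, the start site of Cd79b had a region (3.65 to 5.13 against 1.83 to 3.56 CPM), and those of Cd79a, Ms4a1, Pax5 and Blk had none. For CD8 T cells the 2 start sites summed to 19.4 to 22.2 CPM in WT and 15.5 to 16.8 CPM in Ikzf1-cko libraries, and for myeloid cells 2 of 6 start sites, those of Cebpa and Cd14, summed to 35.4 to 36.4 and 44.9 to 48.3 CPM. Erythroid cells had 1 of 4 start sites with a region (0.913 to 2.29 against 2.60 to 2.95 CPM) and NK cells 2 of 3 (3.95 to 5.48 against 2.75 to 3.25 CPM). The part of these shifts in the results below was not tested.

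The reference sequences of 7 of the strongest loci are shown because the regions that rose and those that fell differed in how often they hold the AP-1 motif. Each is the central 240 bases of its region in mm9, plus strand, with capitals at matches to the AP-1 motif TGANTCA. Capitals also mark the Ikaros core GGGAA, read on either strand. The more accessible examples lie in introns of Galnt7, Mdfic and Atg9b and upstream of Ahr.
OCR_107489, Galnt7 (chr8:60068112-60068351): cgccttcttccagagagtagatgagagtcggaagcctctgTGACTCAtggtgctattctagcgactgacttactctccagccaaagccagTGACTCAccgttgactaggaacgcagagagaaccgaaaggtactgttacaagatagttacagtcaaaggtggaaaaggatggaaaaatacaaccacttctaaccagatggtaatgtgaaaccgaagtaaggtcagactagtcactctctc
OCR_91451, Mdfic (chr6:15672298-15672537): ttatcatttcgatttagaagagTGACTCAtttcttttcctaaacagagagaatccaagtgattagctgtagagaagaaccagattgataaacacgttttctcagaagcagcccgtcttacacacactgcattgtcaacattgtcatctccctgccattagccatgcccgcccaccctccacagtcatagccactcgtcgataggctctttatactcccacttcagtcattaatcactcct
OCR_84829, Atg9b (chr5:23895193-23895432): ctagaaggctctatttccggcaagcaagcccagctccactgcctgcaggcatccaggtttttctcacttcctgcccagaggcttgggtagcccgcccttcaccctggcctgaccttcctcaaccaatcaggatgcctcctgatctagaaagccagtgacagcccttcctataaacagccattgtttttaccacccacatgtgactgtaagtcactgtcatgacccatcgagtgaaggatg
OCR_23263, Ahr (chr12:36247628-36247867): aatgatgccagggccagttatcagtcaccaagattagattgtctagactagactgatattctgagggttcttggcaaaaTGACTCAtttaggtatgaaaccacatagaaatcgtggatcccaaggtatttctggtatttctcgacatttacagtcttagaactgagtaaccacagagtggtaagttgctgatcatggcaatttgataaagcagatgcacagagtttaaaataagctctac
The less accessible examples lie in an intron of 4930554G24Rik, near Atg5 and in the Speer cluster near Gm10354.
OCR_16556, 4930554G24Rik (chr11:14042653-14042892): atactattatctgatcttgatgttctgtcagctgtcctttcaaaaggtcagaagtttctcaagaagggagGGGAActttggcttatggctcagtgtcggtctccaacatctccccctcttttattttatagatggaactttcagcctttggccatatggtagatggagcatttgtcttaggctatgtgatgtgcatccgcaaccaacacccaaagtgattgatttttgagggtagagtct
OCR_11083, Atg5 (chr10:43958427-43958666): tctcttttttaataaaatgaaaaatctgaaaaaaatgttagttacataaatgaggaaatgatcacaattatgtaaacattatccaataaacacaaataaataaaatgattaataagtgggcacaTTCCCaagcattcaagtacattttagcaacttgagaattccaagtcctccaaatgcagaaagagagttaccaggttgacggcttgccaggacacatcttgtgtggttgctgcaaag
OCR_84399, Gm10354 (chr5:15004501-15004740): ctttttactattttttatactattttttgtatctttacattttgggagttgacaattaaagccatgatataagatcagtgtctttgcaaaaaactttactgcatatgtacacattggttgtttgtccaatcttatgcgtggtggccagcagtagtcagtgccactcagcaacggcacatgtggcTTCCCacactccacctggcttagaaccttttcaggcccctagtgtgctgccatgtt
The AP-1 motif occurs at 2 places in the Galnt7 sequence and at 1 place each in those of Mdfic and Ahr. The Atg9b sequence and the 3 less accessible sequences hold none, and each of these 3 holds 1 GGGAA core. The sequences shown are examples, and GGGAA did not set falls apart as a group. It was in 58.7% of rises, 62.4% of falls and 60.8% of all strong regions.

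Most strong regions were shifted towards higher values in Ikzf1-cko libraries. The median log2 fold change was 0.28 over the strong, -0.36 over the weak and -0.11 over all tested regions, with library totals as the scaling. At an FDR under 0.05 without a fold threshold, 10946 strong regions (52.3%) were higher in Ikzf1-cko Treg and 1994 (9.52%) were lower. In 13796 strong regions (65.9%) the values of the genotypes were fully separated, each Ikzf1-cko library on the same side of each WT library. The share of counted reads that fell on strong regions was 58.3% ± 1.73 in stimulated WT and 70.7% ± 1.55 in stimulated Ikzf1-cko libraries (SD, n = 3). This difference of 12.4 percentage points had an exact two-sided permutation p of 0.1, the smallest that 3 against 3 libraries allow. The strong set was itself defined on these libraries, with 3142 regions strong only through Ikzf1-cko and 1750 only through WT. The permutation did not redefine the set, so the difference is partly set by the choice and nothing is concluded from this p.

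**Figure D1:**
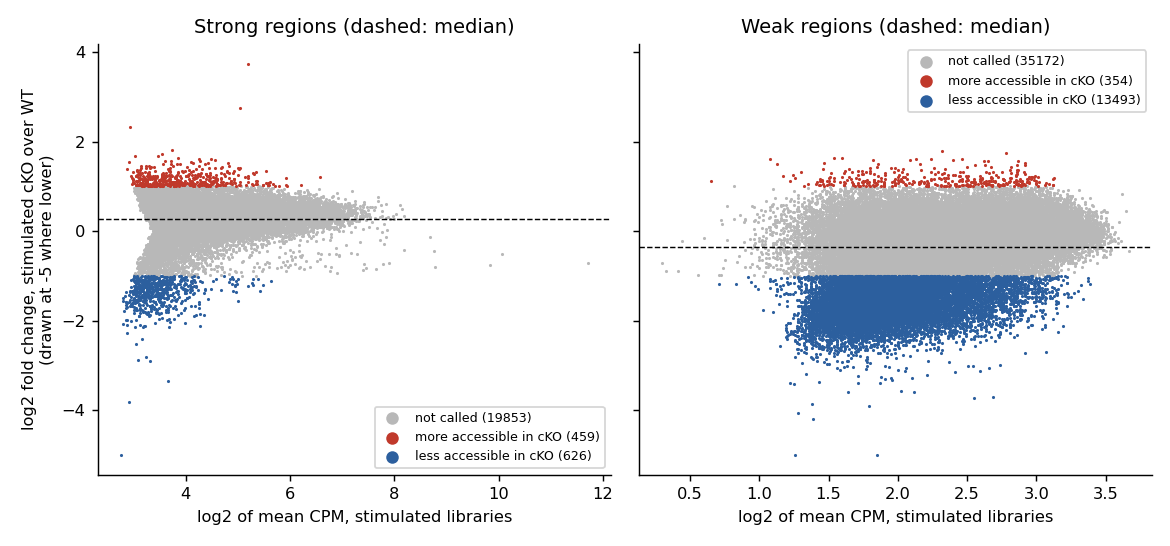
Log2 fold change of stimulated Ikzf1-cko over WT Treg (y axis) against the log2 of the mean CPM over the stimulated libraries (x axis) for the strong (left) and weak (right) tested regions, 1 point per region, with dashed lines at the medians of 0.28 and -0.36. Values below -5 are drawn at -5. Among strong regions the 459 rises and 626 falls sit mostly at the low end of the level range, and among weak regions 13493 falls form a cloud below -1.

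The direction of the calls depended on the scaling. Against 459 rises and 626 falls, TMM factors gave 684 and 556, DESeq2 gave 823 and 528, centring on the strong regions gave 81 and 1022, loess normalization against abundance gave 234 and 787, and a loess correction for GC content gave 1491 and 426. Centring removes the shift of 0.28 by construction, and values relative to it are given below where they matter. Of the rises, 318 were strong only through the Ikzf1-cko libraries, and of the falls, 592 were strong only through the WT libraries. Among the 16046 regions that were strong in both groups, 141 rose (0.879%) and 34 fell (0.212%).

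The largest rise among strong regions was at a pair of neighbouring regions on chromosome 1 near the gene model Gm10222. OCR_759 (chr1:24619838-24620087, intergenic) had 4.46, 4.75 and 6.24 CPM in the WT and 67.0, 72.4 and 64.8 CPM in the Ikzf1-cko libraries (log2 fold change 3.74, SE 0.18, adjusted p = 3.4e-15). OCR_758 (chr1:24619247-24619705, over the start site) went from 8.55 ± 1.63 to 56.9 ± 3.54 CPM (log2 fold change 2.75). Both matched the mitochondrial genome over their whole length (99.6% and 99.8% identity), and reads from nuclear and mitochondrial copies cannot be told apart here. They were as high in ex vivo Ikzf1-cko libraries (60.6 to 77.4 CPM at OCR_759).

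The start site of Ctnnd1, which encodes p120 catenin, a partner of cadherins that also acts in Wnt signaling, had the largest rise outside these regions. OCR_64204 (chr2:84490559-84491260) had 2.81, 2.01 and 2.70 CPM in WT and 12.9, 13.0 and 12.1 CPM in Ikzf1-cko stimulated libraries. It rose by 2.33 on the log2 scale (SE 0.22, adjusted p = 3.9e-09) and was as different ex vivo, where the WT libraries had 2.33 to 4.62 CPM and the Ikzf1-cko libraries 14.7 to 18.4 CPM. The groups were thus apart ex vivo as well, which the choice of the region did not require.

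Of 2 genes of the Galnt family, whose enzymes act in mucin-type O-glycosylation, Galnt7 had the next largest rise and Galnt9 the smallest of the 10. The intronic Galnt7 region OCR_107489 (chr8:60067825-60068639) had 6.78, 4.57 and 6.24 CPM in WT and 18.5, 19.5 and 24.0 CPM in Ikzf1-cko libraries (log2 fold change 1.82, SE 0.19, adjusted p = 3.6e-08). The intronic Galnt9 region OCR_88377 (chr5:111023482-111023963) went from 9.47 ± 1.55 to 28.8 ± 2.39 CPM (1.61, SE 0.15, adjusted p = 2.4e-09). All 10 were chosen among regions where each stimulated Ikzf1-cko library lay above each WT library, so this separation is no finding.

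Mdfic encodes a protein with a MyoD family inhibitor domain. Its intronic region OCR_91451 (chr6:15672178-15672658), 1.09 kb from the start site, had 3.31, 6.94 and 6.24 CPM in WT and 17.9, 18.5 and 17.6 CPM in Ikzf1-cko libraries (log2 fold change 1.73, SE 0.18, adjusted p = 2.5e-08). Ahr encodes a ligand-activated transcription factor that senses aryl hydrocarbons. The intergenic region OCR_23263 (chr12:36247418-36248079), at -27.7 kb from the Ahr start site (negative distances lie upstream), had 5.46, 8.59 and 7.28 CPM in WT and 19.7, 22.8 and 22.9 CPM in Ikzf1-cko libraries (1.63, SE 0.16, adjusted p = 6.9e-09). Ly75 encodes an endocytic receptor of dendritic cells and other leukocytes, and OCR_62906 (chr2:60208134-60209047), 12.3 kb from its start site in an exon of Gm13571, rose from 11.0 ± 1.63 to 33.9 ± 2.30 CPM (1.62).

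The remaining rises of this group were at Atg9b, an autophagy gene, and at a gene model. OCR_84829 in an Atg9b intron (chr5:23895148-23895479) had 5.79, 4.93 and 4.99 CPM in WT and 17.1, 15.3 and 18.3 CPM in Ikzf1-cko libraries (1.68, SE 0.17, adjusted p = 1.7e-08). OCR_80037 in an exon of Gm13283 (chr4:88406382-88406685) went from 3.87 ± 0.640 to 12.4 ± 1.12 CPM (1.68), and 64.3% of its sampled 31-base words occur elsewhere in the genome, so that its reads could come from other copies. Each of the 10 rises stayed past both thresholds in all 15 alternatives run for named regions. The smallest value on the centred scale was 1.32, at Galnt9.

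**Figure D2:**
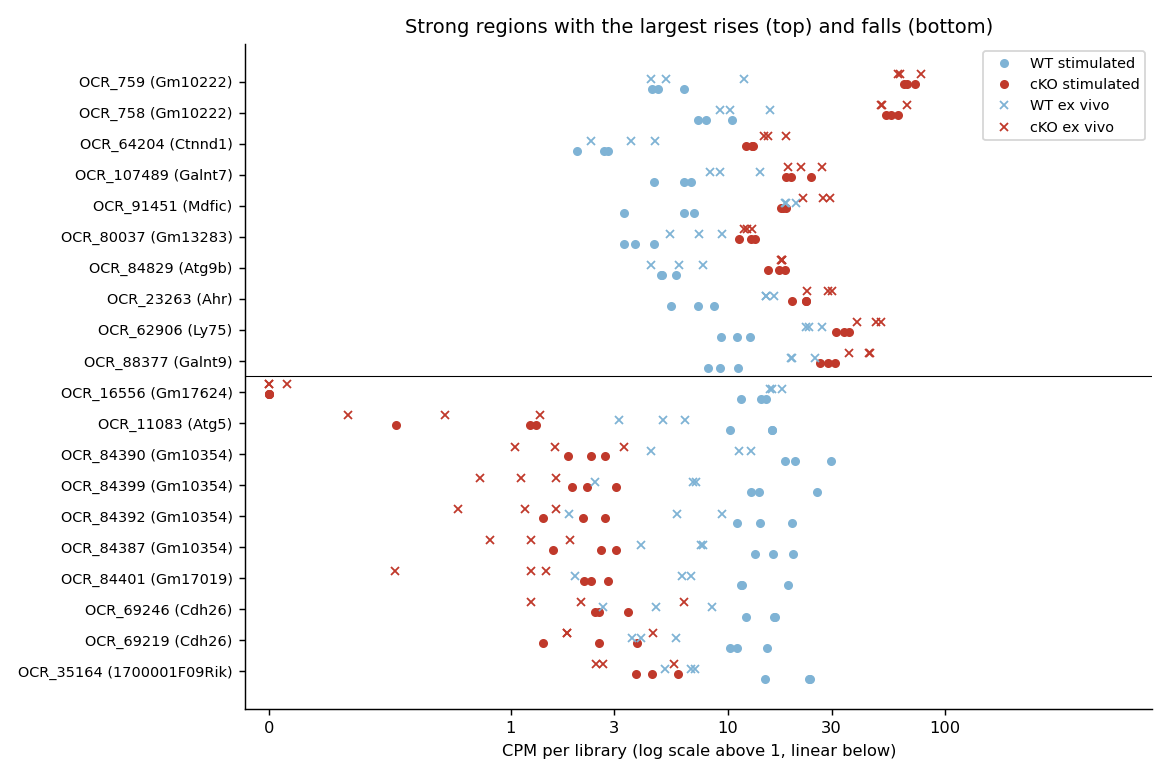
CPM per library (x axis, logarithmic above 1 and linear below) for the 10 strong regions with the largest rises (top) and the 10 with the largest falls (bottom), labelled with the nearest gene. Dots are stimulated and crosses ex vivo libraries, WT in blue and Ikzf1-cko in red. In every row the stimulated libraries of the genotypes stand apart, which was a condition of the choice.

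Among falls, OCR_16556 in an intron of 4930554G24Rik (chr11:14042402-14043145) was not covered in Ikzf1-cko Treg. It had 14.2, 11.5 and 15.0 CPM in the stimulated WT libraries and 0 reads in each of the 3 stimulated Ikzf1-cko libraries, which is at least 45.6-fold lower when 3 reads per library are taken as the floor. Ex vivo the WT libraries had 15.6 to 17.7 CPM and the Ikzf1-cko libraries 0 to 0.0727 CPM. The region lies on the same chromosome as Ikzf1 (chr11:11585006-11672929). Within 5 Mb of Ikzf1, 6 of 28 strong regions fell (21.4%), against 2.97% of strong regions elsewhere.

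The next largest fall was at OCR_11083 (chr10:43958232-43958862), at -29.3 kb from the start site of Atg5, an autophagy gene. It had 15.9, 15.9 and 10.2 CPM in WT and 1.30, 1.22 and 0.523 CPM in Ikzf1-cko libraries (log2 fold change -3.82, SE 0.32, adjusted p = 5.4e-10). That no stimulated library of one genotype reached the values of the other was a condition of its choice.

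The Speer genes, a rodent cluster expressed mainly in testis, held 5 of the 10 largest falls. At OCR_84390 in an exon of Gm10354 (chr5:14973252-14974443) the WT libraries had 29.9, 18.3 and 20.4 CPM and the Ikzf1-cko libraries 2.71, 2.34 and 1.83 CPM (-3.34, SE 0.29, adjusted p = 1.1e-09). OCR_84399, OCR_84392, OCR_84387 and OCR_84401 in the same cluster fell by 2.89, 2.88, 2.80 and 2.52 on the log2 scale. Between 54.8% and 76.3% of the sampled words of these 5 regions occur elsewhere in the genome, and their reads could have been placed among several copies.

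The other falls lay on chromosomes 2 and 14. OCR_69246 (chr2:178516432-178517451), 351 kb from the start site of the cadherin gene Cdh26, had 16.4, 12.1 and 16.2 CPM in WT and 3.47, 2.54 and 2.44 CPM in Ikzf1-cko libraries (-2.41, SE 0.33, adjusted p = 1.2e-06). OCR_69219 (chr2:178307044-178307612), 142 kb from the same start site, went from 12.2 ± 2.68 to 2.58 ± 1.20 CPM (-2.28). OCR_35164 (chr14:44058023-44058810) near the gene model 1700001F09Rik went from 20.8 ± 5.17 to 4.69 ± 1.07 CPM (-2.15), with 42.1% repeated words. These 10 falls also kept their call in each of the 15 alternatives.

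The rises and falls differed in where they lay and how dense they were. Of the 459 rises, 7.19% lay over a start site, 44.0% in introns and 39.4% between genes, and of the 626 falls 28.3%, 21.9% and 41.9%, against 49.9%, 20.5% and 22.7% of all strong regions. The median GC content was 44.8% in rises, 54.1% in falls and 54.6% in all strong regions. Density, in CPM per kb of region, reached 20 in the higher group in 72.1% of rises and 11.3% of falls, against 58.3% of all strong regions. Repeated words made up at least 50% of 2 rises (0.436%) and 31 falls (4.95%), against 0.64% of all strong regions.

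The called regions were chosen for their stimulated values, and their levels in all 4 groups are given as a description. The rises had a median density of 12.8 in stimulated WT and 29.1 in stimulated Ikzf1-cko Treg, beside 19.8 and 30.5 ex vivo. The falls had 13.1 and 5.12, beside 6.69 and 4.48 ex vivo. In the rises ex vivo WT lay between stimulated WT and both Ikzf1-cko groups, and in the falls it lay nearer to the Ikzf1-cko groups. Stimulated WT was the highest of the 4 groups in 591 falls (94.4%) and the lowest in 428 rises (93.2%), which the choice of the regions by these libraries largely sets. Over all strong regions it was the highest in 2931 (14%) and the lowest in 12103 (57.8%).

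**Figure D3:**
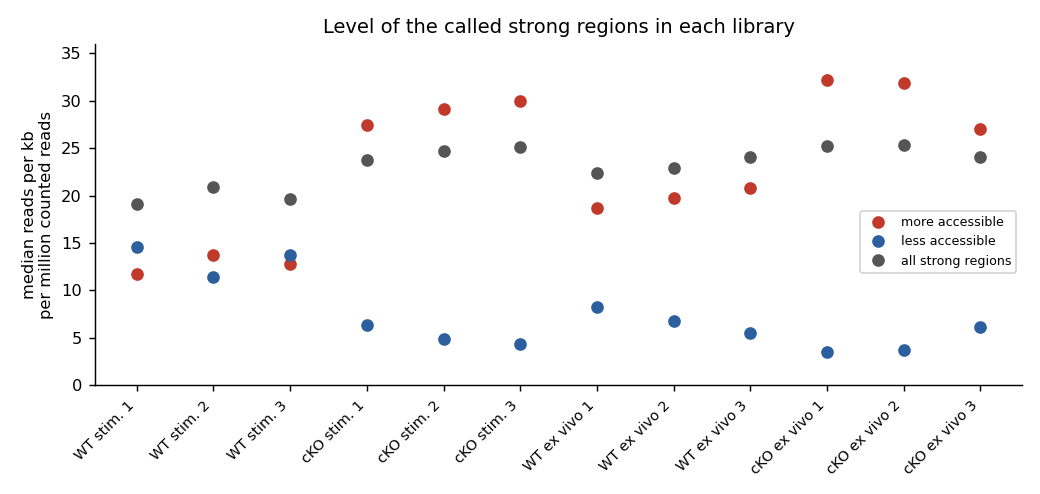
Median density (CPM per kb of region, y axis) of the 459 more accessible (red), 626 less accessible (blue) and all 20938 strong regions (grey) in each of the 12 libraries (x axis), 1 dot per library. The stimulated WT libraries have 11.4 to 14.6 in the less accessible regions, above the 3.50 to 8.20 of the other 9 libraries.

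Short motifs were counted on both strands in the central 300 bases of regions at least that long, which were 446 rises, 622 falls and 20782 strong regions in all. TGANTCA, the AP-1 motif, was in 43.3% of rises, 6.43% of falls and 11.7% of all strong regions. Away from start sites, where 20% of strong regions held it, the shares were 45.2% of rises and 8.54% of falls. It was in 44.8% of the 125 rises away from start sites that were strong in both groups, against 18.3% of such regions. Conversely, 9.05% of the 2066 strong regions away from start sites with the motif rose and 1.84% fell, against 2.74% and 4.91% of the 8285 without it. Their median log2 fold changes were 0.51 and 0.28 (0.22 and -0.00 on the centred scale, 0.30 and 0.07 after loess, 0.69 and 0.49 after GC correction), and ex vivo 0.10 and 0.02.

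Since most rises lay away from start sites, the other motifs are given there too. The RUNX motif TGTGGT was in 34.3% of rises, 27.2% of falls and 30% of all strong regions away from start sites, and the NFAT core TGGAAA in 30%, 18.7% and 24.8%. The forkhead motif GTAAACA was in 6.76%, 3.37% and 5.06%, the interferon response motif in 7%, 3.6% and 5.92%, and the T-box motif AGGTGTGA in 2.42%, 1.12% and 1.69%. The CTCF core was in 0.242% of rises, 3.37% of falls and 1.64% of all. The GGGAA core was in 57.2%, 64% and 60.4%, the NF-kB motif in 21%, 17.3% and 20.8%, and the TCF motif CTTTGAA in 7.49%, 7.42% and 8.15%. Matches to GGGAA and the NF-kB motif, and to TGGAAA and the interferon motif, can overlap, and a match is a description of the letters, not of binding.

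Genes with several called strong regions nearest to their start site, within 100 kb, and none in the other direction were taken by count, the 10 genes with most rises and 11 with most falls once ties were kept. That the regions of such a gene lean to one side is largely set by this choice. Over all strong regions 52.3% were higher and 9.52% lower at an FDR under 0.05. Mdfic had 8 rises among 18 strong regions, and all 18 were higher at an FDR under 0.05, with log2 fold changes of the 8 from 1.07 to 1.73. Its region OCR_91475, 62.1 kb into the gene, had 12.4, 15.5 and 15.8 CPM in WT and 31.7, 34.2 and 33.1 CPM in Ikzf1-cko libraries (1.19, SE 0.12, adjusted p = 2.3e-08). The region over the start site itself, OCR_91450, was higher by 0.70 and did not reach the fold threshold.

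Rgs1, a brake on G protein signaling downstream of chemokine receptors, had 5 rises among 12 strong regions. All 12 were higher at an FDR under 0.05, beside 52.3% of all strong regions. OCR_5805 (chr1:146155046-146156023), at -58.7 kb from its start site, had 14.7, 19.4 and 19.8 CPM in WT and 48.8, 44.6 and 48.4 CPM in Ikzf1-cko stimulated libraries (1.41, SE 0.12, adjusted p = 1.3e-09). Ex vivo the same region had 43.5 to 49.2 CPM in WT and 41.9 to 57.2 CPM in Ikzf1-cko libraries, so that only the stimulated WT libraries were low.

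Cd47, the surface signal that restrains phagocytes, had 4 rises among 17 strong regions, with log2 fold changes from 1.00 to 1.27. At OCR_46088 the level went from 40.1 ± 6.56 to 81.1 ± 4.95 CPM (1.02, SE 0.10, adjusted p = 5e-09). On chromosome 16, Gpr15, a receptor for homing to the large intestine, and Cpox, an enzyme of heme synthesis, are neighbours and had 3 rises each. OCR_46554, 16.5 kb from the Gpr15 start site, had 14.9, 20.1 and 17.3 CPM in WT and 40.8, 38.1 and 39.2 CPM in Ikzf1-cko libraries (1.18, SE 0.11, adjusted p = 8.2e-09).

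Il7r, the receptor for the survival cytokine IL-7, had 3 rises among 7 strong regions. That over its start site, OCR_38938 (chr15:9459275-9459777), had 8.27, 9.32 and 8.73 CPM in WT and 22.2, 21.3 and 22.8 CPM in Ikzf1-cko libraries (1.33, SE 0.15, adjusted p = 6.6e-08). The transporter gene Slco3a1, the ataxin-related gene Atxn7l1, the transcription factor gene Nfia and the gene model Gm17384 also had 3 rises each, with log2 fold changes from 1.02 to 1.53. Slco3a1 was the only gene of these 10 with a strong region lower at an FDR under 0.05 (1 of 6). Its rise with the smallest p, OCR_101475, was called in 9 of 15 alternatives.

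**Figure D4:**
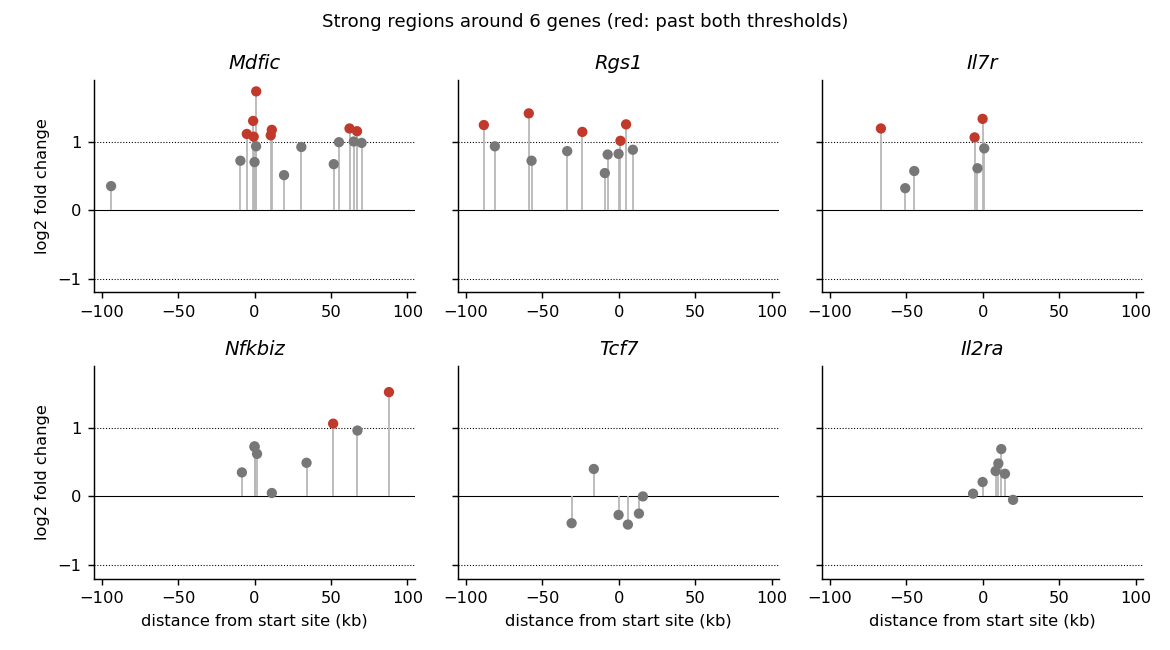
Log2 fold change of stimulated Ikzf1-cko over WT Treg (y axis) against distance from the start site in kb (x axis) for the strong regions nearest to Mdfic, Rgs1, Il7r, Nfkbiz, Tcf7 and Il2ra, 1 dot per region, red where both thresholds were passed and grey otherwise. All regions of Mdfic, Rgs1 and Il7r, genes chosen for several rises and no falls, lie above 0, whereas those of Tcf7 lie between -0.41 and 0.40.

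Among genes with several falls, Heatr7b1 had 9 falls among 20 strong regions, all 20 lower at an FDR under 0.05, beside 9.52% of all strong regions. Its region OCR_3428 had 22.5, 20.3 and 22.3 CPM in WT and 11.5, 8.04 and 8.63 CPM in Ikzf1-cko libraries (-1.21, SE 0.15, adjusted p = 2.5e-07). Gm16387 had 9 falls among 9 strong regions, with log2 fold changes from -1.68 to -1.03 and a mean of 40.2% repeated words.

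On chromosome 17, Tcte2, a t-complex gene expressed in testis, had 7 falls among 9 strong regions and Smok2a, a sperm motility kinase gene, 5 of 5. OCR_48938 in a Tcte2 exon had 57.1, 36.5 and 48.0 CPM in WT and 19.5, 14.8 and 14.1 CPM in Ikzf1-cko libraries (-1.56, SE 0.19, adjusted p = 1.8e-07). OCR_48881 near Smok2a went from 31.8 ± 9.40 to 8.84 ± 1.64 CPM (-1.86). Ex vivo WT libraries had 10.2 to 23.9 CPM at the former and 6.63 to 11.4 CPM at the latter, below each stimulated WT library.

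Odz4, a teneurin that guides neuronal wiring, had 7 falls among 8 strong regions, and Lphn2, an adhesion receptor of the latrophilin family, had 4 of 5, including the broad start site region OCR_75964 (45, 36.2 and 47.0 CPM in WT against 23.5, 15.4 and 16.9 CPM, -1.2, SE 0.16, adjusted p = 1.2e-06). Gm7120 had 5 of 5. Prl2c2, a placental hormone gene of the prolactin family, and the gene models Gm10354 and Gm9758 had 4 of 4 each, and Gm13145 had 4 of 6. None of the strong regions of these 11 genes was higher at an FDR under 0.05, beside 52.3% of all strong regions. The choice of genes with most falls and no rises largely sets this.

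Start sites made up 33 of the rises and 177 of the falls. The rises over start sites included those of the activation receptor gene Tnfrsf8 (CD30), the DNA sensor gene Aim2, the guanylate-binding protein gene Gbp5, the calcium sensor gene Stim2 and the mitochondrial iron importer gene Slc25a37, with log2 fold changes of 1.01, 1.10, 1.02, 1.57 and 1.20. The Tnfrsf8 start site was called in only 7 of 15 alternatives. The falls over start sites included those of the GABA receptor gene Gabrg3 (-1.81), the endophilin gene Sh3gl2 (-1.83), the potassium channel gene Kcnn2 (-1.52) and the cell adhesion gene Chl1 (-1.01). At Gabrg3 the density was 14.7 in WT and 4.21 in Ikzf1-cko Treg, and at Slc25a37 it was 44.2 and 101.

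Genes of Treg and T cell programs, 245 in 19 lists, were nearest to 799 strong regions within 100 kb. Of these, 34 rose (4.26%, at 24 genes), 0 fell, 481 were higher and 35 lower at an FDR under 0.05 (beside 52.3% and 9.52% of all strong regions), and the median log2 fold change was 0.37, beside 0.28 over all strong regions. At the fold threshold the background is 2.19% rises and 2.99% falls. The absence of falls holds for scaling by library totals, since regions at Axin2, Smad7, Il12rb2 and Jag2 passed both thresholds as falls when centred (-1.12, -1.08, -1.11 and -1.03). At the FDR, the Wnt list went from 20 higher and 6 lower to 5 and 14 when centred, and the naive T cell list from 53 and 8 to 22 and 23. Most rises were near the threshold, and 46 of the 72 called named regions kept both thresholds when centred on the strong regions.

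Inhibitory receptor genes had the highest median of any list (0.61), with 4 rises among 31 strong regions (12.9%, beside 2.19% of all strong regions). At an FDR under 0.05, 28 were higher (90.3%), beside 52.3% of all strong regions. At OCR_45699, at -37.6 kb from Tigit, the WT libraries had 7.94, 10.0 and 7.28 CPM and the Ikzf1-cko libraries 19.5, 19.5 and 19.3 CPM (1.20, SE 0.14, adjusted p = 8.6e-08). In an intron of Pdcd1, which encodes PD-1, OCR_3841 had 6.28, 6.39 and 6.86 CPM in WT and 15.6, 14.6 and 15.4 CPM in Ikzf1-cko libraries (1.23, SE 0.16, adjusted p = 4.6e-07). Both were named as the called region of their gene with the smallest p, so the separation of their libraries is no finding.

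The effector Treg list had 4 rises among 63 strong regions (6.35%, median 0.53), at the transcription factor genes Bhlhe40, Nfil3 and Rora. OCR_95741, 27.2 kb from Bhlhe40, went from 19.2 ± 1.70 to 41.3 ± 2.77 CPM (1.10, SE 0.10, adjusted p = 3.3e-09), OCR_29736 in Nfil3 rose by 1.05, and OCR_114042 in Rora by 1.00, which was past the fold threshold in 8 of 15 alternatives. In the Treg identity list, 3 of 75 rose (4%), at Tigit and at Nt5e, which encodes the adenosine-producing enzyme CD73 (OCR_114808, 10.1 ± 0.448 to 21.3 ± 2.39 CPM, 1.07). Both shares rest on few regions, beside 2.19% of all strong regions.

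NF-kB genes had 4 rises among 49 strong regions (8.16%, beside 2.19% of all strong regions), with a median of 0.45. At an FDR under 0.05, 36 were higher (73.5%), beside 52.3% of all strong regions. Nfkbiz encodes an atypical nuclear inhibitor of NF-kB, and OCR_46358, 87.9 kb from its start site, had 7.77, 10.2 and 9.36 CPM in WT and 26, 29.0 and 23.3 CPM in Ikzf1-cko libraries (1.52, SE 0.17, adjusted p = 5.5e-08). OCR_23994 near Nfkbia, the gene of the cytoplasmic inhibitor IkBa, went from 9.37 ± 2.50 to 20.2 ± 1.33 CPM (1.11), and OCR_75062 in an intron of Nfkb1 from 11.4 ± 3.70 to 23.3 ± 0.937 CPM (1.05).

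Notch pathway genes had 4 rises among 34 strong regions (11.8%, beside 2.19% of all strong regions), with a median of 0.38. At an FDR under 0.05, 20 were higher (58.8%) and 3 lower (8.82%), near the 52.3% and 9.52% of all strong regions. When centred, 12 were higher and 6 lower. Rbpj encodes the DNA-binding partner of Notch, and OCR_86138 in its intron had 13.7, 15.5 and 15.2 CPM in WT and 29.7, 30.5 and 32.3 CPM in Ikzf1-cko libraries (1.06, SE 0.11, adjusted p = 2.8e-08). Regions in the coactivator genes Maml2 (OCR_111604, 11.1 ± 1.53 to 26.6 ± 0.553 CPM, 1.27) and Maml3 (OCR_71301, 5.74 ± 0.685 to 12.8 ± 0.937 CPM, 1.17) also rose. The Notch ligand gene Jag2 had a start site region that was lower in the same libraries (OCR_26815, log2 fold change -0.75, adjusted p = 0.00045), short of the fold threshold but past it when centred (-1.03).

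Wnt and catenin genes had 2 rises among 43 strong regions (4.65%, beside 2.19% of all strong regions), with a median of 0.24. The rises were the start sites of Ctnnd1 and of the secreted Wnt target Wisp1 (OCR_41118, 8.39 ± 0.894 to 18 ± 1.10 CPM, 1.09). OCR_20948, 68.0 kb from Axin2, which encodes a feedback inhibitor of Wnt signaling, had 237, 236 and 198 CPM in WT and 152, 114 and 112 CPM in Ikzf1-cko libraries (-0.83, SE 0.13, adjusted p = 5.4e-06), apart between the groups but short of the fold threshold, which it passed when centred (-1.12) and after loess (-1.24). It was chosen after its values were seen, as were the other named regions short of the fold threshold, such as those at Tcf7l2 (-0.55), Smad7 (-0.79), Bcl2l11 (-0.63) and the Il12rb2 start site (-0.82).

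In the lists for T cell receptor signals, early induced factors had 3 rises among 100 strong regions (3%, beside 2.19% of all strong regions). They lay at Myc (OCR_40856, 56.1 kb away in Pvt1, 1.11) and Egr2 (OCR_12095, 1.04). Signaling genes had 3 of 75 (4%), at the phosphatase gene Ptpn22 (OCR_73691, 6.79 ± 1.60 to 16.5 ± 1.89 CPM, 1.26), Malt1 (1.16) and the phospholipase gene Plcg1 (1.04, called in 9 of 15 alternatives). Homing receptors had 4 of 51 (7.84%), at Gpr15 and at the egress receptor gene S1pr1 (OCR_74157, 13.8 ± 1.78 to 28.1 ± 1.13 CPM, 1.02). The naive T cell list had 4 of 109 (3.67%), at Il7r and S1pr1 (median 0.29). The follicular list had 2 of 33 (6.06%), both at Pdcd1. Each of these counts rests on few regions and is not read as a trait of its list. The TNF receptor list had 1 of 35 (2.86%, beside 2.19% of all strong regions), the Tnfrsf8 start site, called in 7 of 15 alternatives. The TGF-beta list had 0 of 53 and the Ikaros family list 0 of 17. There, 26 and 9 regions were higher and 3 and 0 lower at an FDR under 0.05 in edgeR, beside 52.3% and 9.52% of all strong regions. For TGF-beta this turned to 4 higher and 10 lower when centred and 6 and 10 after loess, and for the Ikaros family it was 2 and 2 when centred and 4 and 0 after loess.

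**Figure D5:**
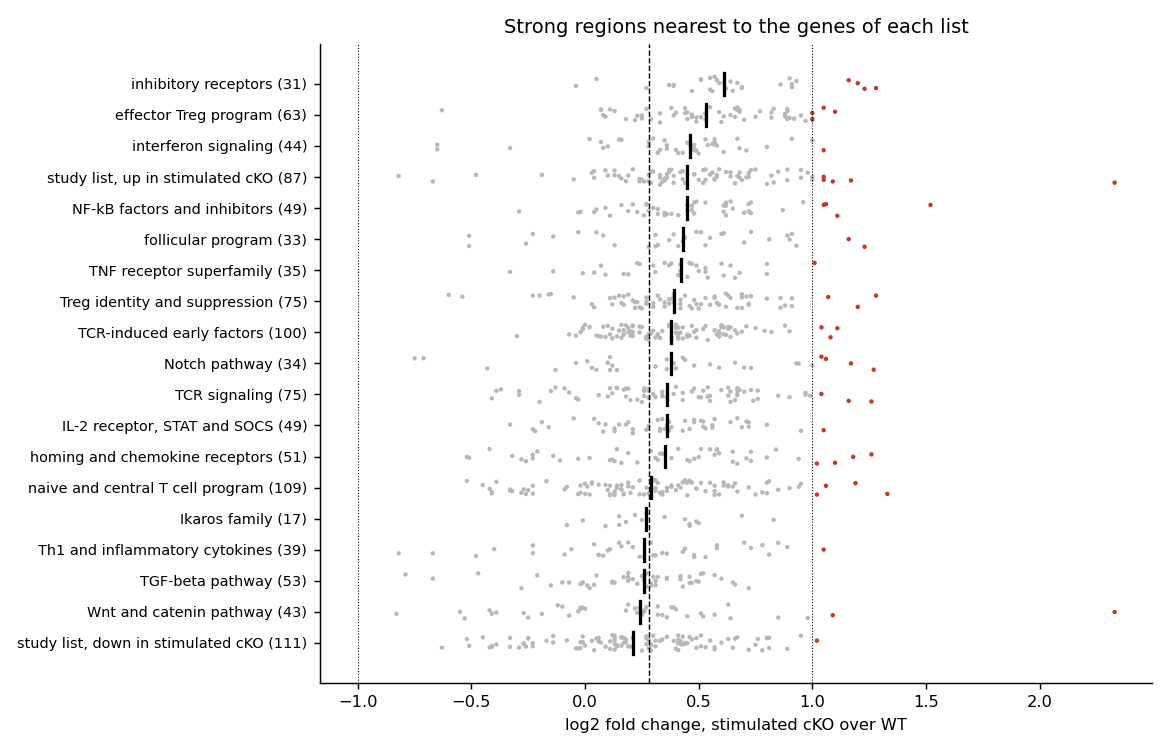
Log2 fold change (x axis) of the strong regions nearest to the genes of each list (y axis, number of strong regions in brackets), 1 dot per region, red where both thresholds were passed, with a bar at each list's median, a dashed line at the median of all strong regions (0.28) and dotted lines at the fold threshold. Inhibitory receptors have the highest median (0.61) and the study's list of genes lower in stimulated Ikzf1-cko Treg the lowest (0.21).

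Of the genes that the study names for expression in stimulated Treg, those named as higher in Ikzf1-cko Treg (32 genes) had 5 rises among 87 strong regions (median 0.45), and those named as lower (22 genes) had 1 rise, at S1pr1, among 111 (median 0.21). The rises made up 5.75% and 0.901% of the strong regions, beside 2.19% of all strong regions. The study chose these genes on RNA of the same kinds of cells, and the lists are not independent evidence of a direction. At an FDR under 0.05, 64 regions of the former list were higher (73.6%) and 3 lower (3.45%). In the latter list 49 were higher (44.1%) and 10 lower (9.01%), beside 52.3% and 9.52% of all strong regions. On the centred scale the counts were 32 and 5 in the former, and 18 and 31 in the latter.

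Of the single loci the study names, counted within 100 kb whichever start site was nearest, no strong region passed both thresholds at Foxp3 (4 strong regions), Il2ra (10), Il2 (4), Ifng (3), Irf4 (11), Bcl6 (5) or Tcf7 (9). At an FDR under 0.05, edgeR had 3, 6, 2, 2, 6, 5 and 1 of these higher, and 3 lower at Tcf7, beside 52.3% higher and 9.52% lower over all strong regions. The Foxp3 start site, OCR_116779, had 7.11, 7.86 and 7.49 CPM in WT and 7.70, 7.73 and 8.72 CPM in Ikzf1-cko libraries (0.11, SE 0.17, adjusted p = 0.6, and -0.18 when centred), and the groups overlapped. The Il2ra start site, OCR_60385, was at 0.21 (SE 0.12, adjusted p = 0.14, and -0.08 when centred and -0.05 after loess), and that of Il2, OCR_70740, at 0.21 (SE 0.21, adjusted p = 0.42, and -0.08 when centred).

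Ifng, the main Th1 cytokine gene, had a start site region with 4.63, 5.12 and 4.37 CPM in WT and 7.48, 7.23 and 7.33 CPM in Ikzf1-cko libraries (OCR_15114, 0.64, adjusted p = 0.0049, and 0.35 with adjusted p = 0.11 when centred), and OCR_15117 at 17.6 kb was higher by 0.81 (adjusted p = 2.3e-05). OCR_44744, at -8.26 kb from Bcl6, the follicular repressor gene, had 18.2, 20.8 and 15.0 CPM in WT and 33.8, 34.9 and 31.7 CPM in Ikzf1-cko libraries (0.89, SE 0.11, adjusted p = 5e-07), under the fold threshold. At Tcf7, which encodes the naive-state factor TCF-1, the start site OCR_17910 had 18.9, 32.3 and 32.2 CPM in WT and 21.8, 21.3 and 25.3 CPM in Ikzf1-cko libraries (-0.27, adjusted p = 0.1), and the groups overlapped. It was lower at the FDR when centred (-0.55, adjusted p = 0.00084) and after loess (-0.54, adjusted p = 0.00074). Notch2, Rbpj and Maml3 had 2, 2 and 1 rises among 7, 6 and 10 strong regions, and the start sites of Notch2 and Rbpj were higher by 0.43 and 0.94. The former did not pass the FDR when centred (0.14, adjusted p = 0.14) or after loess (0.10, adjusted p = 0.33).

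The targeted gene Ikzf1 had 31 regions, of which 28 were tested and 6 were strong. None of the strong ones passed both thresholds (median log2 fold change 0.46), and 1 weak region rose. The intronic region OCR_16488 went from 30.2 ± 4.69 to 48.7 ± 2.44 CPM (0.69, adjusted p = 1e-05). Accessibility over Ikzf1 does not check the genotype labels, since which exons are deleted is not given in the sources used here.

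The same genotypes were also compared ex vivo, in libraries that shared the filter and the fit. There, 114 strong regions were called as higher in Ikzf1-cko Treg (0.544%) and 131 as lower (0.626%). Over all 20938 strong regions 13644 were higher ex vivo, 4153 at an FDR under 0.05, and 7294 were lower, 1822 at that FDR. Of the 459 stimulated rises, 446 were higher ex vivo, 357 at an FDR under 0.05, and 58 passed both thresholds, which is 12.6% of the stimulated and 50.9% of the ex vivo rises. Of the 626 stimulated falls, 613 were lower ex vivo, 341 at an FDR under 0.05, and 78 passed both thresholds (12.5% and 59.5%).

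The difference between the 2 comparisons was tested as an interaction in edgeR, which 3630 strong regions passed (17.3%), 3339 of them with the larger value after stimulation. Among the rises 217 passed and among the falls 158, and since the stimulated difference that chose these regions is a term of the interaction, nothing is read from these counts. The same holds for named regions chosen by that difference, and their values are given as a description. At Rgs1, OCR_5805 was higher by 0.17 ex vivo and by 1.41 after stimulation, a difference of 1.24 (SE 0.16, adjusted p = 6.3e-05). At Nfkb1, OCR_75062 had 28.7 to 33.5 CPM in WT and 27.4 to 32.4 CPM in Ikzf1-cko ex vivo libraries, and its difference was 1.11 (SE 0.19, adjusted p = 0.00049). At Bcl6, OCR_44744 had 16.8 to 16.9 CPM in WT and 12.9 to 15.3 CPM in Ikzf1-cko ex vivo libraries, and the difference was 1.14 (SE 0.16, adjusted p = 0.00012). Of the 97 named regions 31 passed this test, and 20 did so without WT replicate 1 of the stimulated libraries.

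Weak regions moved mostly the other way. Of 49019, 354 rose (0.722%) and 13493 fell (27.5%), and the falls had a median density of 12.5 in stimulated WT, 4.21 in stimulated Ikzf1-cko, 4.76 in ex vivo WT and 2.92 in ex vivo Ikzf1-cko Treg. These falls were chosen for higher stimulated WT than Ikzf1-cko values, so the order of these 2 groups is no finding. The filter and scaling set this count, with 265 called weak regions (59 rises, 206 falls) where all 6 stimulated libraries had to hold 3.6 CPM, and 3512 rises and 3405 falls after loess against abundance. Without WT replicate 2 of the stimulated libraries there were 558 rises.

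Among weak rises the largest was in Ube2l6. OCR_64222 in an intron of this gene, whose product conjugates ISG15, had 3.14, 1.83 and 1.66 CPM in WT and 6.72, 7.94 and 8.63 CPM in Ikzf1-cko libraries (1.78, SE 0.25, adjusted p = 1.7e-06). OCR_111684 near the nuclease gene Endod1 went from 3.13 ± 0.771 to 10.6 ± 1.47 CPM (1.74), and regions near the mitochondrial genes Clpb (OCR_102855) and Ptcd3 (OCR_93980) and at the Rdh1 start site (OCR_15775) rose by 1.64, 1.63 and 1.62.

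Among weak falls, 3 of the 5 largest lay near Ikzf1 on chromosome 11. OCR_16436 (chr11:10956123-10956838), at -57.4 kb from Vwc2, had 9.76, 6.21 and 5.61 CPM in WT and 0 reads in each Ikzf1-cko library, at least 24.2-fold lower. OCR_16555 (chr11:14037852-14038193), next to OCR_16556, had 5.29, 3.65 and 5.41 CPM in WT and 0 reads in Ikzf1-cko, at least 16.1-fold lower. OCR_16372 in Abca13 (chr11:9108451-9108800) had 4.80, 4.2 and 6.03 CPM in WT and 0.108 to 0.436 CPM in Ikzf1-cko libraries. The other 2 were in the Speer cluster, OCR_84450 near Speer4c and OCR_84377 in Speer4e, with 4.59 ± 0.5 and 6.51 ± 1.54 CPM in WT and 0.268 ± 0.082 and 0.426 ± 0.0161 CPM in Ikzf1-cko libraries. After loess against abundance, OCR_16555, OCR_16372 and OCR_84450 were not called in edgeR (adjusted p = 0.08, 0.27 and 0.31). Each of them was called in 14 of 15 alternatives.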

How the data were processed

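ATAC-seq libraries of WT and Ikzf1-cko Treg, stimulated or ex vivo, were analysed from the deposited table of raw read counts per region. Per the study's methods and the labels, the authors aligned reads with Bowtie2, removed duplicates, called peaks with MACS2 in each replicate, removed blacklisted regions, merged peaks found in at least 2 replicates and made the deposited counts over them. Coordinates are those of mm9, which the labels name (the methods print another build). A second deposited table of the authors' comparisons (log2 fold changes, F statistics, p-values and FDR) was not used. The authors normalized on background bins, which the region counts do not allow.

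Counts were tested with edgeR 4.0.16 quasi-likelihood models (R 4.3.3) over all 12 libraries and 4 group means, scaled by library totals, with regions of at least 3.6 CPM in 3 libraries kept and p-values adjusted by Benjamini-Hochberg over 69957 regions. The SE is the log2 fold change divided by the root of F. The interaction was the stimulated minus the ex vivo genotype difference. A further 200 regions had no chromosome and 0 reads. Replicates are separate samples by the labels, and the methods call them biological. Which mice or cultures they came from is not given, so p-values measure the spread between these samples. Named were the 10 largest non-overlapping rises and falls among strong and 5 among weak regions, the 8 genes with most calls in each direction (more with ties), at most 4 genes of each list, and the loci the study discusses. Members and lists were chosen with earlier results of these data known. Genes are GENCODE models on mm9, each region assigned to the nearest start site. Repeats were sampled as 31-base words every 20 bases, and mitochondrial matches found with blastn 2.17.0. Alternatives were TMM, DESeq2 1.42.0, limma 3.58.1, centring, loess, GC loess, thinning, other filters and strong cutoffs, the replicate block and leaving out libraries. On simulated data edgeR called 195 of 200 regions changed by 2 on the log2 scale, with 13 false calls over 69957. Unchanged regions were simulated with 1 mean for all groups and no shift between strong and weak regions, so errors from scaling are not measured. Some genes and the list results that rest on them are not reported here.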

Additional observations from a re-analysis of the deposited data

Results flagged for a closer look

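In 31 named regions the genotype difference was not the same after stimulation as ex vivo in edgeR's interaction test (FDR under 0.05). Values are the log2 fold change after stimulation minus that ex vivo. Most named regions were chosen by their stimulated difference, which is a term of this test. The count and the signs at those regions are therefore largely set by the choice, and nothing is read from them. Of all strong regions 17.3% passed the same test. Without WT replicate 1 of the stimulated libraries 20 of the named regions passed.

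Among the largest rises the difference was 1.27 at Mdfic (OCR_91451), 0.98 at Gm13283, 0.80 at Ahr, 0.70 at Ly75, 0.66 at Galnt9 and 0.94 at the weak region near Endod1. At genes with several rises it was 0.90 at Mdfic (OCR_91475), 1.24 at Rgs1, 0.54 at Cd47, 0.66 at Gpr15, 0.79 at Cpox, 0.63 at Nfia, 1.08 at Gm17384 and 0.91 at Il7r. Among falls it was -1.70 and -1.57 at the Cdh26 regions OCR_69246 and OCR_69219, -1.32 at 1700001F09Rik, -0.90 at Tcte2, -1.08 at Smok2a and -0.77 at Lphn2.

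In the gene lists it was 0.72 at S1pr1 (OCR_74157) and 0.72 at Rbpj (OCR_86138), 1.03 at Egr2, 0.73 at Nfkbia, 1.11 at Nfkb1, 0.69 at Tnfrsf8, 1.22 at Plcg1 and 0.51 at Bcl2l11, where the region was less reduced after stimulation. At single loci it was 0.75 at Ifng (OCR_15117), 1.14 at Bcl6 (OCR_44744) and 0.62 at Ikzf1 (OCR_16488).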

How the results depend on the processing

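Strong rises numbered 459 and were 823 with DESeq2, 81 centred, 234 with loess, 1491 with GC loess, 198 with strong set at 20 CPM and 10946 without a fold threshold. Strong falls numbered 626 and were 1022 centred, 5020 at 5 CPM, 65 at 20 CPM, 248 by mean log2 CPM, 178 by density and 1994 without a fold threshold. Their sum of 1085 was 1917 with GC loess, 5703 at 5 CPM, 263 at 20 CPM, 580 by mean log2 CPM, 582 by density and 12940 without a fold threshold. The density cutoff and the removal of repeats (1052) were chosen after seeing the data. Weak rises numbered 354 and were 614 with DESeq2, 66 centred, 3512 with loess, 732 with GC loess, 59 with the filter in all 6 libraries, 103 with limma, 130 at 5 CPM, 615 at 20 CPM and 3296 without a fold threshold. Weak falls numbered 13493 and were 3405 with loess, 31754 unfiltered and 206 with the filter in all 6. All weak calls numbered 13847 and were 6917, 32205 and 265 under these, 9229 at 5 CPM and 22744 without a fold threshold. Of 72 called named regions 46 stayed called centred, and of 31 interactions 20 with DESeq2 and 18 centred. The causes were not tested. Leaving out 1 library gave 404 to 670 strong rises, 535 to 728 strong falls, 966 to 1352 in all, 338 to 558 weak rises, 12179 to 14537 weak falls, 12517 to 15000 in all, 64 to 72 named calls and 20 to 31 interactions. Reversed signs were Foxp3 OCR_116779 (-0.18 centred), Il2ra OCR_60385 (-0.08 centred, -0.05 loess) and Il2 OCR_70740 (-0.08 centred), none of which passed the test. Same-numbered libraries deviated together with r of 0.244, 0.0574 and -0.0915. With no r for libraries of different numbers to set beside them, these values cannot tell whether same-numbered libraries share mice. A fit with the replicate block gave 1088 strong and 13824 weak calls. Ikzf1-cko libraries were deeper than WT, and thinned counts gave 468 strong rises and 638 falls.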
